A study of Rattus norvegicus with 16 samples.

Results

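The miR-29 family of microRNAs was followed in plasma and kidney of rats that received either an iodinated contrast medium or saline. MicroRNAs (miRNAs) are short RNAs that lower the output of messenger RNAs carrying sites that match their seed, the stretch near the 5′ end. The members were the miRNAs named rno-miR-29a, rno-miR-29b and rno-miR-29c on the array, 3 of the 350 rat miRNAs it reads. They were chosen by name, and their passenger strands, the other strand of each hairpin, were not counted as members. As background, the family is known for messenger RNAs of the extracellular matrix among its targets, such as those of fibrillar collagens and elastin. In kidney it is regarded as antifibrotic, and transforming growth factor beta signalling is known to lower it. The arrays measured no messenger RNA or protein, so they do not bear on the word antifibrotic itself.

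The 3 members carry 1 seed, and their full sequences are shown because the array has to tell apart RNAs that differ in few bases. Mature sequences are those of RefSeq (GRCr8), written 5′ to 3′ with the seed, bases 2 to 8, in capitals, and all 3 members matched by name.
miR-29a: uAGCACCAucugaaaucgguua
miR-29b: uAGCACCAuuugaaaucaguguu
miR-29c: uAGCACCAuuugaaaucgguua
The seed AGCACCA was held by 3 of 694 distinct mature rat miRNAs in that table (0.432%), and these were the 3 members. Counting from the 5′ end, miR-29a and miR-29c differed at 1 of 22 positions, C10U. miR-29a and miR-29b differed at 4 of 22 positions, C10U, G18A, U21G and A22U. miR-29c and miR-29b differed at 3, G18A, U21G and A22U, and miR-29b is 1 base longer, with 23 bases against 22. The 3′ end AGUGUU of miR-29b, searched at the 3′ end of the RNA strand, was shared with 1 other of the 694, miR-92b-5p (2 in all, 0.288%).

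The family comes from 4 miRNA genes in 2 pairs. Mature miR-29a lies in Mir29a at chr4:60617968-60617989 on the minus strand. The gene Mir29b1, 291 bases away, holds miR-29b at chr4:60618342-60618364 on the same strand. The second pair is on the plus strand of chromosome 13, with miR-29b again in Mir29b2 at chr13:109098882-109098904 and miR-29c in Mir29c at chr13:109099412-109099433. The hairpins Mir29b2 and Mir29c are 447 bases apart. Both genes for miR-29b give the same mature sequence, so its signal cannot be split between the 2 chromosomes.

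All 24 animals were male Sprague-Dawley rats that had gone 3 days without water and had then been injected with furosemide, a diuretic, at 10 mg/kg, so the controls were dehydrated too. Omnipaque (iohexol, 350 mg iodine per ml) at 10 ml/kg through the tail vein went to 12 rats, called here the CI-AKI rats, for contrast-induced acute kidney injury. The other 12 received the same volume of saline, and blood and kidney were collected at 8 h. Each array read the combined RNA of 3 rats, with 4 such pools in each of 4 groups: plasma control, plasma CI-AKI, kidney control and kidney CI-AKI. The labels give each array a letter code as well, and 6 of the 8 letters stand for one treatment in plasma and the other in kidney. The comparisons were therefore repeated with the treatments exchanged according to the letters of the other tissue.

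Signals are array intensities in arbitrary units, scaled to a common 75th percentile, and a difference is a difference of mean log2 signals. Each member had 2 probes and 20 spots per array, and all 3 were detected on all 16 arrays with no saturated spot. Plasma pool 4 stood apart in both treatments: its arrays detected 84 and 95 miRNAs against 156 to 211 on the other plasma arrays, and their 75th percentiles before scaling were 32.5 and 59.9 against 272 to 1047. On those 2 arrays unscaled miR-29c was 8.72 and 17.0, against 118 to 631 on the other plasma arrays. All plasma arrays shared slide 1 and all kidney arrays slide 2, so tissue cannot be told apart from slide and scan. On both slides the odd columns held control and the even columns CI-AKI pools, so treatment cannot be told apart from column parity. Each pool number also kept its place on both slides, with pool 4 in row 2 at columns 3 and 4. Pool number therefore cannot be told apart from slide position. The tissue labels were checked against miRNAs known to mark blood cells and tubules. All 3 red blood cell miRNAs (miR-451 by -5.49) and all 4 leukocyte miRNAs (miR-223 by -5.61) passed as lower in control kidney than in control plasma. Without scaling 1 of the 3 and 2 of the 4 still passed as lower, and the signs of miR-16 and miR-142-3p turned (0.10 and 1.41). Of 5 tubule miRNAs only miR-192 was detected on all arrays of both control groups, and it passed as higher in kidney by 0.66. The other 4 entered the test through kidney, so their calls check little: miR-194, for example, was detected on all 4 kidney and on 2 of 4 plasma control arrays.

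In kidney, none of the 3 members differed detectably between contrast medium and saline at 8 h, and their groups overlapped; groups without overlap made up 5.11% of the miRNAs tested. Scaled miR-29a was 1587, 1572, 1768 and 1648 in control pools 1 to 4 and 1734, 1594, 1744 and 1829 in CI-AKI pools 1 to 4. The pools of the groups lay among each other, with means of 1644 ± 89.2 in control and 1725 ± 97.4 in CI-AKI kidney (SD, n = 4 each). Scaled miR-29b was 2000, 2021, 2290 and 2078 in control and 2167, 1751, 2173 and 1971 in CI-AKI kidney. CI-AKI pool 2 was the lowest of the 8, and the other 3 lay inside or beside the control range. Scaled miR-29c was 1025, 1076, 1155 and 1048 in control and 1157, 985, 1111 and 1090 in CI-AKI kidney, where the lowest and the highest pool were both CI-AKI pools.

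The members' 95% intervals in kidney were narrow. They rest on 4 pools a group and are not adjusted for the 176 miRNAs, and their ends are not limits of detection. By limma with Benjamini-Hochberg adjustment over 176 miRNAs, miR-29a differed by 0.07 (CI-AKI minus control on the log2 scale, SE 0.069, adjusted p = 0.917). Its 95% interval ran from 0.942-fold to 1.17-fold. For miR-29b the difference was -0.061 (SE 0.087, adjusted p = 0.917), with an interval from 0.837-fold to 1.10-fold. For miR-29c it was 0.012 (SE 0.072, adjusted p = 0.957), with an interval from 0.901-fold to 1.13-fold. Of all 176 miRNAs 3 passed the threshold of 0.05 (1.7%), all higher in CI-AKI kidney: miR-327 by 3.52, miR-466b by 1.02 and miR-494 by 0.78. miR-327 was detected on 0 of 4 kidney control arrays and was tested only because every CI-AKI kidney array detected it. Its size therefore rests on values that were not detected. miR-466b was not detected on every kidney control array either, so it too was tested only through the CI-AKI arrays. The difference of miR-466b thus rests in part on undetected signal. With detection required on every array 0 miRNAs passed in kidney. The median difference over the 176 was 0.028 and the median size of a difference 0.066, against 0.07, 0.061 and 0.012 for the sizes of the members' differences. By signed difference miR-29a was the 61st, miR-29c the 104th and miR-29b the 147th highest of 176. A bulk kidney signal cannot tell fewer cells of a type from less RNA per cell. With the treatments exchanged by letter code the 3 differences were 0.0056, 0.023 and 0.017, and 0 of 172 miRNAs passed by limma. miR-494 was then at -0.51, and miR-327 and miR-466b were not tested.

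**Figure D1:**
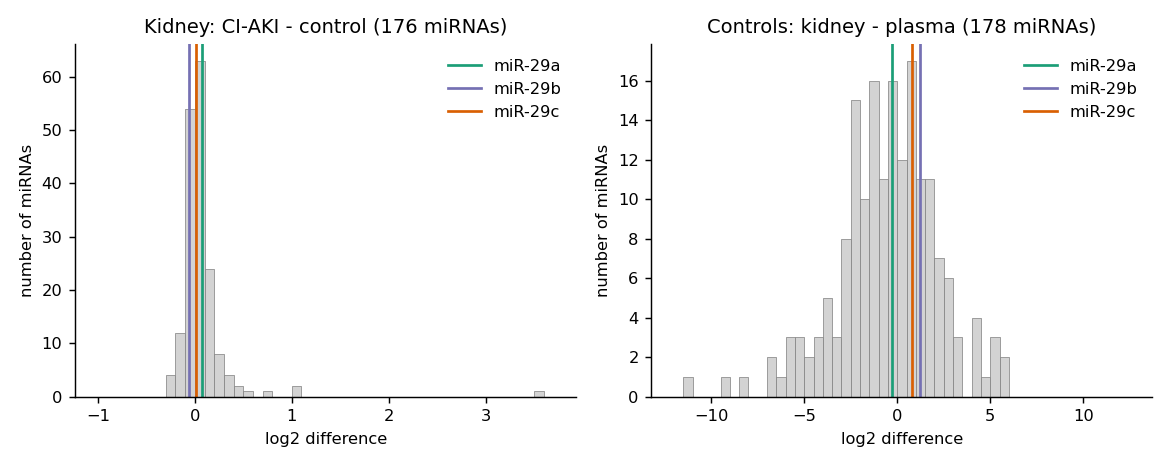
Histograms of the log2 differences of all tested miRNAs, CI-AKI minus control in kidney (left, 176 miRNAs) and kidney minus plasma in the controls (right, 178 miRNAs), with a vertical line for each miR-29 member. In kidney the 3 lines stand between -0.061 and 0.07, near 0, and between tissues they run from -0.30 to 1.21 inside a distribution that spans many log2 units.

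In plasma, too, no member passed, but the pools were far more scattered. Scaled miR-29a was 370, 629, 627 and 355 in control and 482, 498, 663 and 372 in CI-AKI plasma, with pool 4 low in both groups. Scaled miR-29b was 178, 287, 205 and 201 in control and 130, 182, 211 and 198 in CI-AKI plasma. Scaled miR-29c was 115, 227, 202 and 89.0 in control and 144, 200, 209 and 94.4 in CI-AKI plasma. Control and CI-AKI pools overlapped for every member, and pools 2 and 3 were above pools 1 and 4 for miR-29a and miR-29c in both groups.

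By limma over 96 plasma miRNAs, 0 passed (0%), while 5 reached 0.05 before adjustment (5.21%). The difference of miR-29a was 0.049 (SE 0.30, adjusted p = 0.959), with a 95% interval from 0.647-fold to 1.65-fold. That of miR-29b was -0.27 (SE 0.27, adjusted p = 0.941), with an interval from 0.550-fold to 1.25-fold. That of miR-29c was 0.071 (SE 0.39, adjusted p = 0.959), with an interval from 0.579-fold to 1.91-fold. With 4 pools a group, changes inside these intervals remain possible. The intervals are not adjusted for the 96 miRNAs, and their ends are not limits of detection. Without the 2 pool 4 arrays the differences were 0.30, -0.099 and 0.32, and with the letter codes of kidney they were -0.015, 0.26 and -0.028; none passed in either case. The difference between the contrast effects in kidney and plasma was 0.021 for miR-29a (SE 0.30), 0.21 for miR-29b (SE 0.25) and -0.059 for miR-29c (SE 0.40). Their adjusted p by limma were 0.959, 0.927 and 0.950, and 1 of 87 miRNAs passed that test (1.15%).

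**Figure D2:**
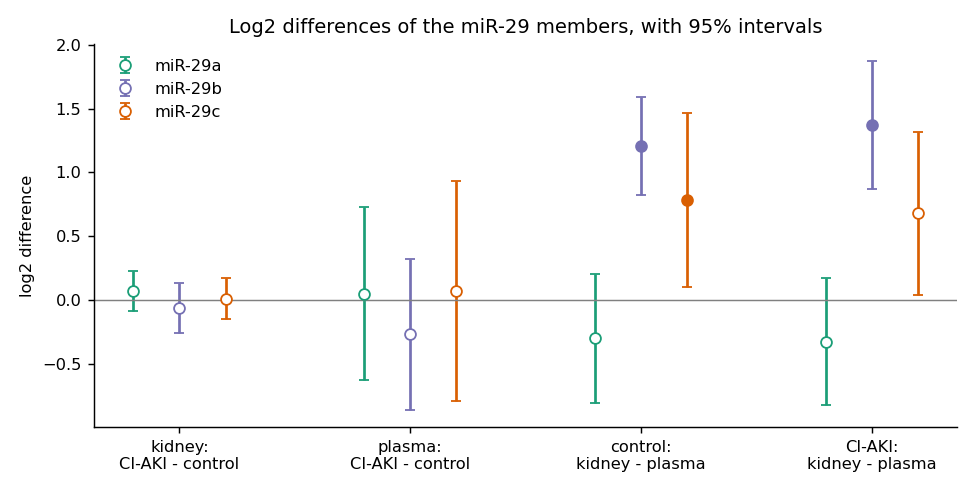
Log2 differences of the 3 members in 4 comparisons (points) with 95% intervals from limma (bars); filled points passed the adjusted threshold. The intervals for contrast medium against saline cross 0 in kidney and plasma and are narrower in kidney. miR-29b is above 0 in both comparisons of kidney with plasma, and miR-29c passed in the controls only. The difference between the contrast effects in kidney and plasma also compares the tissue difference between treatments. For miR-29c it was -0.059 and did not pass (SE 0.40, adjusted p = 0.950 by limma, scaled within each tissue).

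Between tissues the members did not move together: miR-29b, and less firmly miR-29c, had more signal in kidney than in plasma, while miR-29a did not pass. On a scale common to all 16 arrays, control miR-29b was 367, 590, 408 and 415 in plasma pools 1 to 4 and 941, 973, 1081 and 1049 in kidney pools 1 to 4. Every kidney pool was above every plasma pool, a difference of 1.21 (kidney minus plasma, SE 0.17) or 2.31-fold by limma (adjusted p = 0.000201). In CI-AKI rats miR-29b was 268, 408, 435 and 411 in plasma and 1026, 846, 1098 and 916 in kidney, 2.58-fold higher in kidney (difference 1.37, SE 0.22, adjusted p = 0.00033). Such differences were common: 138 of 178 miRNAs passed in controls (77.5%; 33.1% higher in kidney, 44.4% lower) and 135 of 181 in CI-AKI rats (74.6%; 28.2% higher, 46.4% lower). Groups without overlap were as common, 78.7% of miRNAs in controls and 71.8% in CI-AKI rats (33.7% and 28.7% with kidney higher). The difference of miR-29b in controls was the 42nd highest of 178. Of the 66 miRNAs detected, like the members, on all 8 control arrays, 20 passed as higher in kidney and 36 as lower. With background corrected by normexp the difference in CI-AKI rats was 0.83 and did not pass (adjusted p = 0.0623).

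Control miR-29c was 237, 467, 401 and 184 in plasma and 482, 518, 545 and 529 in kidney. The highest plasma pool came just below the lowest kidney pool, and the mean difference was 0.79 (SE 0.29, 1.72-fold, adjusted p = 0.0389 by limma). In CI-AKI rats miR-29c was 297, 448, 431 and 196 in plasma and 547, 476, 561 and 507 in kidney. The groups again did not overlap, and the difference of 0.68 (SE 0.28, 1.60-fold) missed the threshold (adjusted p = 0.0517). The call of miR-29c was thin. In controls it was lost without plasma control pool 1 (adjusted p = 0.0988) or without any one of kidney control pools 1 to 4 (0.0664, 0.0755, 0.0821 and 0.0775), and in CI-AKI rats it was gained without plasma pool 2 (0.0227), plasma pool 3 (0.0347) or both pool 4 arrays (0.0195). With normexp background correction its differences were 0.37 in controls (adjusted p = 0.250) and -0.030 in CI-AKI rats (0.929). With treatments by letter code no call of a member between tissues changed, with miR-29b at 1.19 and 1.38 and miR-29c at 0.81 and 0.66 in the arrays then counted as control and CI-AKI.

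For miR-29a the order of the tissues depended on the scaling. Its control values were 764, 1295, 1248 and 732 in plasma and 747, 757, 834 and 832 in kidney. The kidney pools lay within the plasma range, and the difference of -0.30 (SE 0.22) did not pass (adjusted p = 0.244 by limma). In CI-AKI rats it was 994, 1117, 1367 and 771 in plasma and 821, 770, 881 and 850 in kidney, a difference of -0.33 (SE 0.22, adjusted p = 0.198) that passed without plasma pool 4 (-0.47, adjusted p = 0.0435). Under scaling by the percentile over all miRNAs, by the median or not at all, the sign of the miR-29a difference turned in both treatments (0.26, 0.26 and 1.73 in controls). Those scalings also moved the difference of the median miRNA in controls up by 0.56, 0.56 and 2.03, and quantile normalization moved it by 0.88, against a median of -0.40 on the scale used here. miR-29b and miR-29c stayed above 0 in both treatments under all 4 of these scalings.

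**Figure D3:**
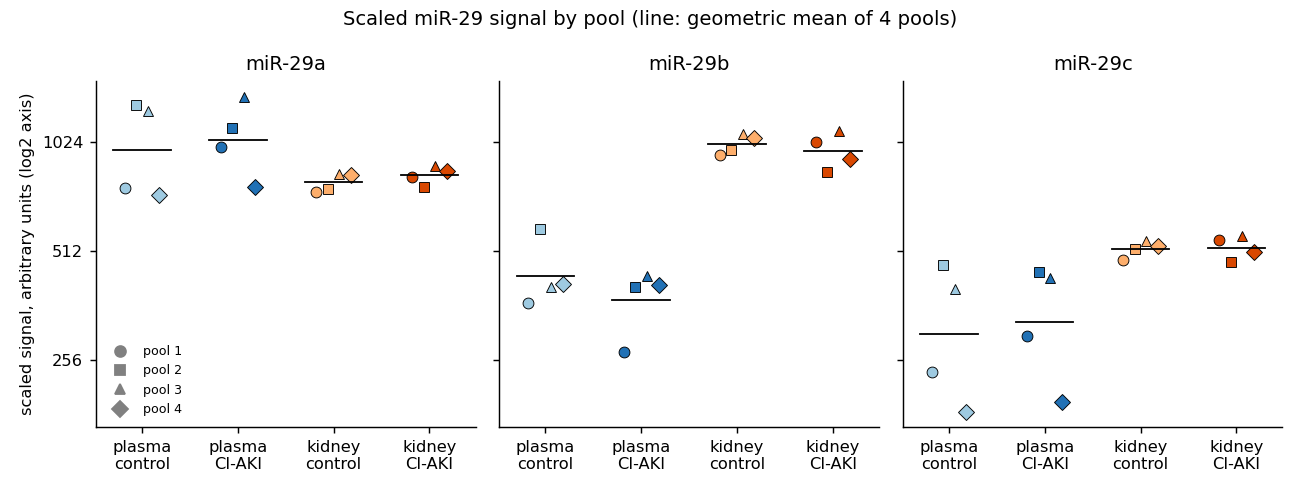
Scaled signal (log2 axis, scale common to all 16 arrays) of miR-29a, miR-29b and miR-29c in each pool; symbols mark pools 1 to 4 and lines the geometric mean of a group. Kidney pools lie above all plasma pools for miR-29b and, narrowly, for miR-29c, and within the plasma range for miR-29a in controls; levels of different miRNAs cannot be compared, since their probes differ.

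By group mean (SD, n = 4 each), miR-29b was at 381 ± 75.8 in plasma CI-AKI, 445 ± 99.0 in plasma control, 971 ± 112 in kidney CI-AKI and 1011 ± 64.9 in kidney control, and only the step from plasma to kidney exceeded the spread of the pools. miR-29c was at 322 ± 134 in plasma control, 343 ± 119 in plasma CI-AKI, 519 ± 26.6 in kidney control and 523 ± 38.8 in kidney CI-AKI, in the same 2 blocks. miR-29a was at 793 ± 47.1 in kidney control, 830 ± 47.0 in kidney CI-AKI, 1010 ± 303 in plasma control and 1062 ± 248 in plasma CI-AKI, and no neighbours in that order were separated by more than their spread. The probes gave the same picture. Both miR-29b probes were without overlap higher in kidney (1.70 and 0.95 in controls, 1.73 and 1.18 in CI-AKI rats), as were both miR-29c probes (0.80 and 0.77, then 0.68 and 0.68). Both miR-29a probes were a little lower with overlap (-0.11 and -0.37, then -0.19 and -0.38).

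The ratio of 2 members on one array does not depend on scaling, so a shift of it between tissues is a shift of one member's signal relative to the other's. It does depend on the background correction. How far the probes of one member also read another was not measured. The log2 ratio of miR-29a over miR-29b was 1.16 ± 0.33 in plasma control, 1.48 ± 0.42 in plasma CI-AKI, -0.35 ± 0.020 in kidney control and -0.22 ± 0.11 in kidney CI-AKI (SD, n = 4 each). With 4 arrays against 4 the exact two-sided permutation test cannot go below p = 0.0286, and of 12 such tests none passed after adjustment (lowest adjusted p = 0.0686). In each treatment the kidney and plasma arrays did not overlap for miR-29a over miR-29b and for miR-29a over miR-29c, with p = 0.0286 in each of these 4 exact permutation tests. Among single miRNAs 78.7% in controls and 71.8% in CI-AKI rats did not overlap between tissues. The share of ratios without overlap over all pairs of miRNAs was not counted, so these ratios are not shown to be unusual. A test over all 16 arrays, with tissue labels permuted within each treatment, was added after these values had been seen. For these 2 ratios it had to return its smallest p, so it restates the lack of overlap and is no further evidence. The ratio of miR-29a over miR-29b was 3.04-fold lower in kidney (8 kidney arrays from -0.37 to -0.11, 8 plasma arrays from 0.82 to 1.89; exact permutation p = 0.000408, the smallest that 4900 labellings allow). The ratio of miR-29a over miR-29c was 2.07-fold lower in kidney (0.55 to 0.75 against 1.32 to 2.00; the same p). The ratio of miR-29b over miR-29c was 0.56 higher on the log2 scale in kidney (0.83 to 0.99 against -0.14 to 1.17; exact permutation p = 0.0184, adjusted 0.0184), with overlap, and its 2 highest plasma values were those of pool 4. Without the pool 4 plasma arrays the 3 differences were -1.75, -0.95 and 0.81, and with background corrected by normexp the second was -0.38 and missed the threshold (adjusted p = 0.118 by the exact permutation test). With treatments by letter code the first was -1.43 in controls and -1.77 in CI-AKI rats and the second -1.05 and -1.04, again without overlap. For miR-29b over miR-29c the test over all arrays missed the threshold with the brightest probe alone (0.34, adjusted p = 0.104) and with the authors' values (0.40, adjusted p = 0.0849).

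Between contrast medium and saline 1 ratio had groups without overlap, and not with treatments by letter code. Here too the share over all pairs of miRNAs was not counted. In kidney miR-29a over miR-29b ran from -0.37 to -0.33 in control and from -0.32 to -0.11 in CI-AKI pools, a difference of 0.13 with p = 0.0286 by the exact permutation test, the smallest possible, and 0.0686 after adjustment over the 12 tests. By letter code the difference was -0.017, with the groups at -0.33 to -0.14 and -0.37 to -0.11 (p = 0.60 by the exact permutation test). The other 5 ratios between treatments in kidney and plasma overlapped, with differences from -0.34 to 0.32 and exact permutation p of 0.114 or more.

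**Figure D4:**
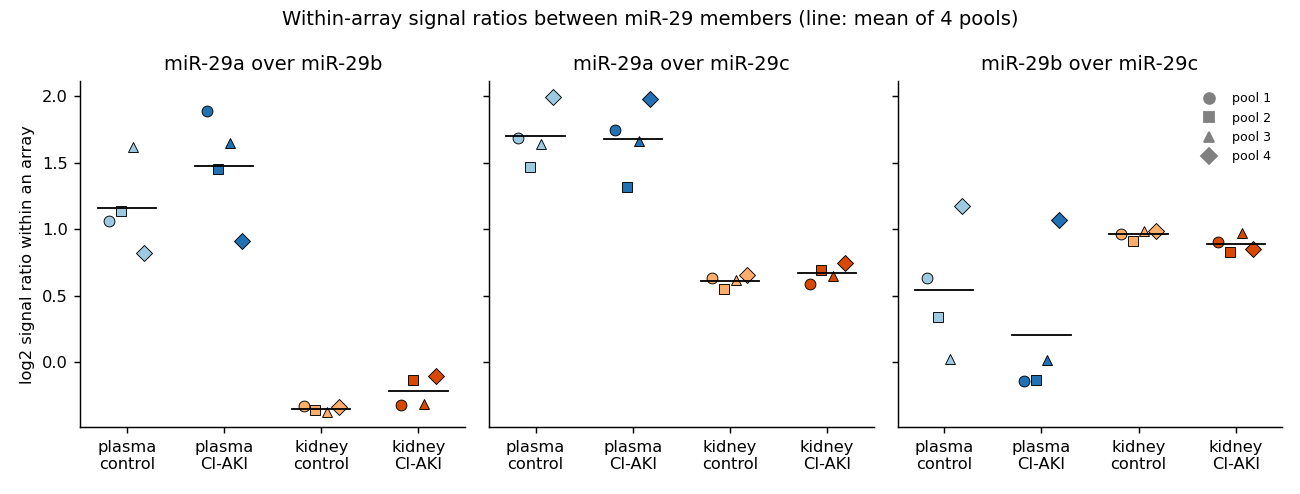
Log2 ratio of 2 members on the same array for each pool, by group; symbols mark pools 1 to 4 and lines the mean of a group. The ratios of miR-29a to both other members are lower on every kidney array than on any plasma array, and pool 4 holds the highest plasma values of miR-29b over miR-29c.

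The passenger strands of the 4 hairpins, which the array design marks with an asterisk, were not all measurable. Their RefSeq sequences are shown because none shares the seed of the members or of another of them (bases 2 to 8 in capitals).
miR-29a*: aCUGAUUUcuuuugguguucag
miR-29b-1*: uUUCAUAUggugguuuagauuu
miR-29b-2*: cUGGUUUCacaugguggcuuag
miR-29c*: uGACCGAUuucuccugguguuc
miR-29b-1* was detected on 0 of 16 arrays and miR-29b-2* on 2, both of kidney CI-AKI. miR-29c* was detected on all 8 kidney arrays but on 2 of 4 plasma control and 1 of 4 plasma CI-AKI arrays. It was tested between tissues only because every kidney array detected it. On the common scale it was 23.7 to 26.2 in kidney control and at most 5.70 in plasma control, and 24.2 to 27.5 and at most 9.22 in CI-AKI rats. On the pool 4 plasma arrays, where it was not detected, the lowest detected signals were 43.2 and 38.1, above every kidney value. Those arrays therefore do not show it to be lower in plasma. limma gave differences of 2.70 (SE 0.46, adjusted p = 0.000803) and 2.92 (SE 0.51, adjusted p = 0.0005), and it passed in both treatments under all 4 other scalings. These sizes rest on values that were not detected. Undetected values below the lowest signal detected on their array were then raised to it, a setting chosen after the data had been seen. With it miR-29c* was 2.71-fold higher in kidney in controls and 2.45-fold in CI-AKI rats. These folds are no lower bounds, since an undetected value can exceed that signal. On plasma control pool 1 undetected miR-29c* was 5.26, against a lowest detected signal of 2.32. miR-29a* was detected on all kidney arrays and on 3 of 4 arrays in each plasma group, and was lower in kidney by limma (-1.19, SE 0.30, adjusted p = 0.00639 in controls; -0.95, SE 0.23, adjusted p = 0.00388 in CI-AKI rats). The call was lost with median scaling in both treatments (-0.63 and -0.52, adjusted p = 0.0932 and 0.0622) and, when the percentile was taken over all miRNAs, in CI-AKI rats (-0.17 by limma, adjusted p = 0.478). Its sign turned without scaling (0.52 and 0.76) and with quantile normalization (0.51 and 0.82), by which it passed as higher in control kidney (adjusted p = 0.0183). The highest of its plasma values in controls, 16.7, was that of pool 4, where it was not detected, and without both pool 4 arrays the differences were -0.57 (adjusted p = 0.00837 by limma) and -0.94 (0.00213). Of its 4 probes 1 was without overlap lower in kidney. In kidney neither passenger strand passed for contrast medium against saline (0.088 for miR-29a* and 0.068 for miR-29c*, adjusted p = 0.917 for both by limma), and by letter code they were at -0.063 and -0.068, again without a call.

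**Figure D5:**
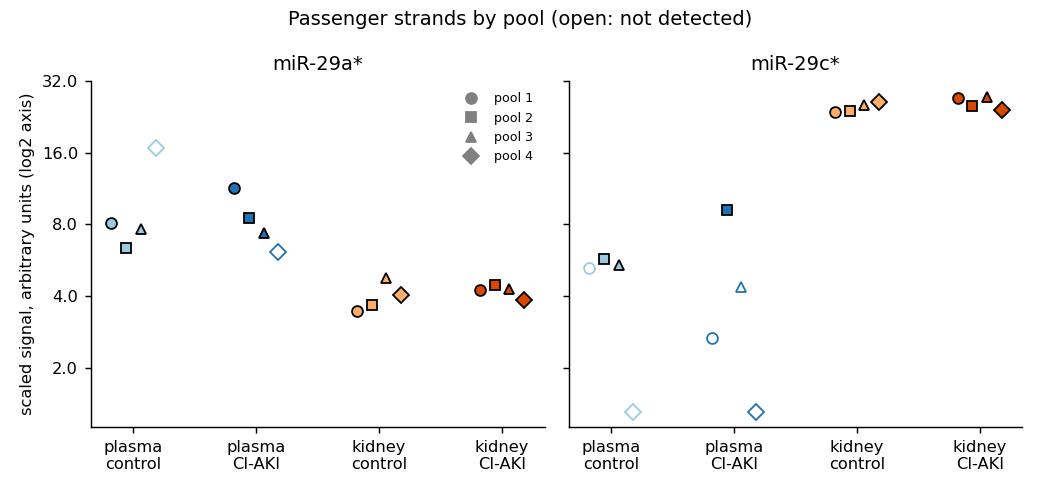
Scaled signal (log2 axis, scale common to all 16 arrays) of miR-29a* and miR-29c* in each pool; open symbols were not detected on that array and symbols mark pools 1 to 4. miR-29c* lies between 23.7 and 27.5 on the 8 kidney arrays and at or below 9.22 on the 8 plasma arrays. On the pool 4 plasma arrays the lowest detected signals, 43.2 and 38.1, were above every kidney value.

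Other miRNAs that textbooks link to kidney fibrosis were likewise without a call after contrast medium. Of 7 miRNAs regarded as profibrotic in kidney 5 were tested there, and 0 passed by limma (miR-324-3p at 0.11, miR-192 at -0.050 and miR-199a-5p at 0.059); their median was 0.042 against 0.028 over all. miR-382 and miR-433 were not detected on enough arrays to be tested. Of 13 other miRNAs regarded as antifibrotic, of the miR-200, miR-30 and let-7 families and miR-26a, all were tested in kidney and 0 passed by limma (miR-30b-5p at 0.19, miR-200c at 0.15 and miR-30c at 0.13); 10 of the 13 had a mean above control, as did 60.2% of all miRNAs, and their median was 0.050. Before adjustment 0 members of either list reached 0.05 in kidney, against 6.25% of all miRNAs. In plasma 3 profibrotic and 8 antifibrotic miRNAs were tested and 0 passed, with medians of -0.30 and 0.089 against -0.086 over all. In the red blood cell, leukocyte, tubule, stromal and endothelial lists 0 members passed in either tissue by limma. Of these only the stromal miR-199a-3p reached 0.05 before adjustment, in plasma, where it differed by -0.72 (adjusted p = 0.836 by limma). By letter code, too, 0 members of any list passed between treatments in either tissue by limma.

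Between tissues 8 of the 13 antifibrotic miRNAs were detected on all arrays of both groups. In controls 5 of these 8 passed as higher in kidney, miR-30c (1.97), miR-30a (1.33), let-7b (1.30), let-7c (1.17) and miR-26a (0.82), and miR-30d as lower (-0.61). The median of the 8 was 0.995 against -0.78 over the 66 miRNAs so detected, of which 20 passed as higher and 36 as lower; of all miRNAs tested 33.1% passed as higher and 44.4% as lower. In CI-AKI rats 4 of the 8 passed as higher and 1 as lower. Of the 84 miRNAs so detected there 18 passed as higher and 50 as lower, and of all tested 28.2% and 46.4%. The other 5, the epithelial miR-200a, miR-200b, miR-200c, miR-141 and miR-429, were tested only because every kidney array detected them, and each was undetected on 1 of 4 plasma control arrays. With that value raised to the array's lowest detected signal, miR-200b was 20.8-fold higher in control kidney. miR-200a was 17.1-fold, miR-429 9.28-fold and miR-200c 3.77-fold higher, and miR-141 was not called. As for miR-29c*, these folds are no lower bounds. Of the 3 profibrotic miRNAs detected on all control arrays, miR-192 passed as higher in kidney (0.66) and miR-214 (-2.25) and miR-21 (-0.66) as lower, while miR-199a-5p, undetected on 1 plasma control array, passed at 0.74 and was at 0.45 with that value raised in the same way. Of the 4 stromal miRNAs all passed as lower in kidney, from miR-145 (-2.46) to miR-199a-3p (-1.24), against 44.4% of all, and of the endothelial pair miR-126 passed as higher (1.26) and miR-126* as lower (-0.69). Some of the lower calls turned in controls under other scalings: miR-126* (0.19) with quantile normalization, by which miR-21 passed as higher in control kidney (0.43, adjusted p = 0.0352), and both of them, miR-30d, miR-143 and miR-199a-3p without scaling. Without scaling no stromal or profibrotic miRNA passed in controls, and the antifibrotic list had 7 higher and 0 lower. Blood cell markers moved with the tissue comparison too: summed red blood cell miRNAs were 7882 to 11565 in control plasma and 792 to 898 in control kidney, and summed leukocyte miRNAs were 4724 to 6231 and 244 to 281; their part in the members' differences was not tested.

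Within a tissue, the miRNAs whose signal followed a member most closely were found by Pearson's r of log2 signals over the 8 arrays, which share a slide and a scaling, as a description only. In kidney, among 162 other miRNAs, miR-29a was followed by miR-193 (0.75), miR-29c (0.71) and miR-28 (0.64). miR-29b was followed by miR-192 (0.90), miR-29c (0.87) and miR-146a (0.76), and miR-29c by miR-29b (0.87), miR-200a (0.84) and miR-101b (0.80). In plasma, among 73, miR-29a was followed by miR-30e (0.96), miR-29c (0.94) and miR-27a (0.88), and miR-29c by miR-27a (0.98), miR-29a (0.94) and miR-30e (0.94). miR-29b stood apart from both in plasma, with miR-24 (0.79), miR-107 (0.78) and miR-223 (0.75) nearest and miR-29a (0.38) and miR-29c (0.34) at the 24th and 29th place. Without the pool 4 arrays, leaving 6, its r was 0.58 with miR-29a and 0.68 with miR-29c in plasma.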

How the data were processed

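Rat miRNA arrays with 1 colour, 16 in all, were read with Agilent Feature Extraction 10.7.3.1 per the file headers, which give the intensity of each spot after background correction. A table deposited by the authors holds log2 values (median 2.276 in each column). Each of its 16 columns correlated best with its own array (0.9159 to 0.9987). It was used only as an alternative, and how it was made is not given in the sources used here.

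Processed intensities of a probe's spots were averaged, outlier spots left out, and these means were averaged over a miRNA's probes. They were divided by each array's 75th percentile, taken over miRNAs that every array of the tissue detected, or all 16 arrays for comparisons across tissues. Values under the median of the arrays' lowest detected signals were set to it, and log2 was taken. MiRNAs detected on every array of at least 1 compared group were tested with limma 3.58.1 (lmFit and eBayes, in R 4.3.3), two-sided, p adjusted by Benjamini and Hochberg's method over all miRNAs tested, with a threshold of 0.05. Ratios were compared with exact permutation tests. The normexp alternative used median signals with an offset of 50. The script was tested on simulated data. The number of pools limits the precision.

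Same-numbered pools are different rats in the 2 treatments and, within a tissue, lay side by side on the slide. Correlations of their deviations were all over 0.1 in plasma (0.17, 0.49, 0.59 and 0.61) and between control plasma and kidney (0.29, 0.44, 0.37 and 0.27), where the pairing is a hint from the data. They were not in kidney (0.31, 0.57, 0.055 and 0.23) or between CI-AKI plasma and kidney (0.18, 0.41, 0.12 and -0.022). Blood and kidney were collected from the same rats, while the main tests between tissues treated their arrays as independent.

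Members, lists and tests were chosen with earlier results of these data known. Named are all members, probes and passenger strands, list members that passed (as examples where many did) or else up to 3 with the smallest p, the 3 miRNAs most like each member, and up to 3 that passed in kidney. miR-199a-3p in plasma and miR-92b-5p were named after their values were seen.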

Additional observations from a re-analysis of the deposited data

How the results depend on the processing

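Over 17 or 18 alternatives a comparison, with no replicate left out, no call of a member was gained or lost between contrast medium and saline in either tissue, and the lowest adjusted p of a member there was 0.645. Signs of differences near 0 turned, the causes not tested. In kidney miR-29a turned with quantile normalization (-0.019) and in the upper slide row alone (-0.032), and miR-29b with treatments by letter code (0.023). In kidney miR-29c turned with median scaling (-0.0036), no scaling (-0.031), the brightest probe (-0.028), the upper row (-0.083) and without pool 4 of both kidney groups (-0.0034). In plasma miR-29a turned with the percentile over all miRNAs (-0.097), quantile normalization (-0.041), no scaling (-0.092), normexp (-0.057), the authors' values (-0.039) and letter code (-0.015). In plasma miR-29b turned with normexp (0.072), the lower row (0.013) and letter code (0.26), and miR-29c with the percentile over all miRNAs (-0.075), no scaling (-0.070) and letter code (-0.028). For the difference between the tissues' contrast effects, miR-29a turned with median scaling (-0.21), the brightest probe (-0.075), the upper (-0.29) and lower row (-0.0096), without the pool 4 plasma arrays (-0.23), by letter code (-0.043) and with 4 groups in 1 fit (-0.026). There miR-29b turned with median scaling (-0.022), normexp (-0.15) and the lower row (-0.089), and miR-29c with the percentile over all miRNAs (0.12) and no scaling (0.039).

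Counts of called miRNAs in kidney, 3 in the text, fell to 1 with quantile normalization, no scaling, either slide row alone and 4 groups in 1 fit, and to 0 with normexp, 10 times the floor, detection required on every array and letter code. In plasma 2 passed in the upper row alone. For the difference of effects 2 passed with total signals and without the pool 4 plasma arrays, and 0 with no scaling, normexp, 10 times the floor, detection on every array, the upper row and letter code. Between tissues in controls 57 passed with no scaling, 72 with normexp and 56 of 66 tested with detection on every array, and in CI-AKI rats 82, 69 and 70 of 84. Calls higher and lower in kidney, 59 and 79 in controls, became 71 and 66 with the percentile over all miRNAs, 73 and 67 with the median, 80 and 55 with quantiles and 45 and 12 with no scaling. In CI-AKI rats 51 and 84 became 77 and 60, 69 and 66, 76 and 50, and 67 and 15.

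Between tissues miR-29b passed under all 17 alternatives in controls (0.94 to 3.24) and under 16 of 17 in CI-AKI rats, where normexp gave 0.83 (adjusted p = 0.0623). miR-29c in controls missed the threshold with no scaling (2.82, adjusted p = 0.112), normexp (0.37, 0.250), 10 times the floor (0.79, 0.0560), slide row as a block (0.79, 0.0550) and the lower row (0.98, 0.168). In CI-AKI rats it passed with the percentile over all miRNAs (1.46), median scaling (1.11), quantiles (1.04), no scaling (2.86), the authors' values (0.89), detection on every array (0.68) and without the pool 4 plasma arrays (0.59), and turned with normexp (-0.030). miR-29a turned with the percentile over all miRNAs, the median and no scaling (0.26, 0.26 and 1.73 in controls, then 0.46, 0.11 and 1.85). Of the ratios, miR-29a over miR-29c in kidney turned with the authors' values (-0.047). By letter code the ratios of miR-29a over miR-29b, miR-29a over miR-29c and miR-29b over miR-29c turned in kidney (-0.017, -0.011 and 0.0059) and in plasma (-0.27, 0.013 and 0.29). Over both treatments normexp gave -0.38, with miR-29b over miR-29c at 0.40 with the authors' values and 0.34 with the brightest probe.

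Leaving out each pool in turn, miR-29a, miR-29b and miR-29c ranged from 0.041 to 0.11, -0.11 to 0.0051 and -0.020 to 0.058 in kidney, from -0.093 to 0.22, -0.36 to -0.12 and -0.075 to 0.35 in plasma, and from -0.15 to 0.16, 0.060 to 0.30 and -0.33 to 0.087 for the difference of effects, where 1 to 4 miRNAs passed, with 4 without plasma CI-AKI pool 2. Between tissues they ranged from -0.42 to -0.16, 1.12 to 1.35 and 0.67 to 0.999 in controls and from -0.47 to -0.20, 1.21 to 1.44 and 0.44 to 0.83 in CI-AKI rats. The ratio of miR-29a over miR-29c in plasma ranged from -0.12 to 0.098. The replicate block moved no difference and changed no call: miR-29c in controls had adjusted p = 0.0476 with the pool number as a block and miR-29b 0.0024. For the kidney pools and the CI-AKI tissues not all correlations given with the processing were over 0.1. With 4 correlations each, they cannot decide whether pool numbers pair these arrays. In kidney 3 control pools of 4, and in plasma every control pool, had the highest correlation with the CI-AKI pool of their own number. Signal over the lowest detected signal limits plasma pool 4 most, where miR-29c in control was 4.25 times that signal.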
